A study of Rattus norvegicus with 8 samples.

Results

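Bioactive lipids signal to cells through receptors on the surface, and the genes described here encode such receptors together with the enzymes that make and destroy one of their ligands. The 10 genes were taken by symbol from the deposited count table, which holds 40994 genes, and each symbol occurred there. They are 7 receptors (S1pr1, S1pr2 and S1pr3 for sphingosine 1-phosphate, Lpar1, Lpar4 and Lpar6 for lysophosphatidic acid, and Ptafr for platelet-activating factor) and 3 enzymes (the sphingosine kinases Sphk1 and Sphk2 and the lyase Sgpl1). The samples were H9c2 cells, a line of myoblasts from rat heart without genetic modification. OxPAPC, a mixture of oxidized forms of a phosphatidylcholine with an arachidonoyl chain, was given at 100 µg/ml for 6 h to 4 of them, and 4 received vehicle, whose nature and duration the labels do not give. All came from passage 6 and carry the same batch date. Since separate cultures are not stated in the labels, the p-values below refer to the spread between these 8 samples only, and some of it may be technical.

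Sphingosine 1-phosphate (S1P) is made inside cells by sphingosine kinases, which phosphorylate sphingosine, and is destroyed irreversibly by S1P lyase in the endoplasmic reticulum. Exported S1P acts on G protein-coupled receptors that steer calcium signals, cell migration and survival, and in the heart it is known for protection against ischemic injury. Lysophosphatidic acid (LPA), made outside cells from lysophospholipids, acts on a related receptor family and on a more distant one. The receptor for platelet-activating factor (PAF) also recognizes short-chain oxidized phosphatidylcholines that resemble PAF.

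Of the 10 genes 9 had enough counts to be tested, and 5 of the 9 passed the test between OxPAPC and vehicle. Lpar1, Sphk1, Sgpl1 and Lpar6 rose, and Ptafr fell. No S1P receptor passed, nor did Sphk2. The share of passing genes among all 13206 tested genes was 34.3%, made up of 17.9% that rose and 16.4% that fell, so the 9 genes stood in a background where calls were common. With upper-quartile scaling the split over all genes was 1829 risers and 2723 fallers, against 2369 and 2164, and 3 members rose and 1 fell. The median log2 fold change was 0.10 over the 9 genes and 0.0022 over all tested genes. In 5 of the 9 the OxPAPC libraries did not overlap the vehicle libraries. Over all tested genes this held for 32.4%. Passing means an adjusted p below 0.05 in edgeR, CPM are counts relative to the scaled library total, and each log2 fold change compares OxPAPC with vehicle and is given ± SE.

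**Figure D1:**
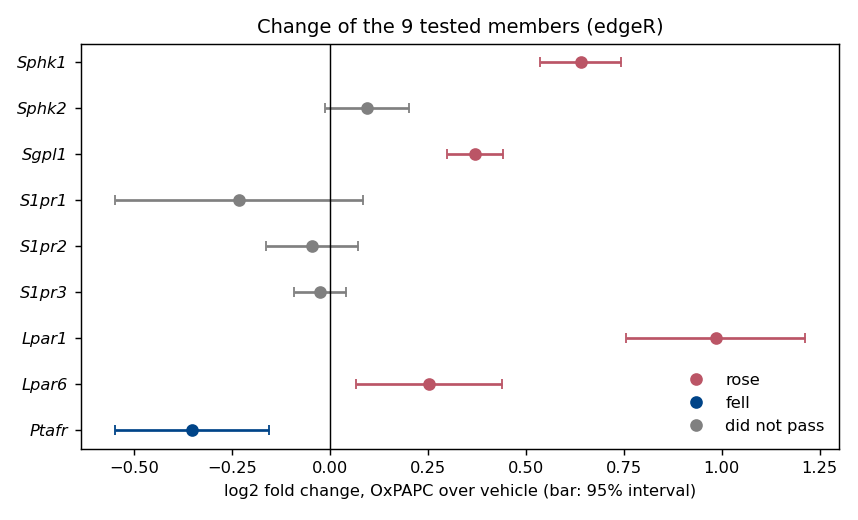
Log2 fold change of the 9 tested genes, OxPAPC over vehicle, on the horizontal axis, with 95% intervals from the edgeR fit and 1 gene per line. Lpar1 (0.98) and Sphk1 (0.64) lie farthest to the right, Ptafr (−0.35) lies to the left of 0, and the intervals of Sphk2 and of the 3 S1P receptors cross 0.

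The libraries held 15.4 to 21.7 M counts each. Of 8 myoblast markers 5 were expressed (Cdh15, Chrna1, Des, Myod1 and Myog), while Myf6, Pax7 and Myf5 had 37, 2 and 1 counts over all libraries. The 8 markers summed to 415.8 to 434.1 CPM in vehicle and 358.1 to 383.5 CPM in OxPAPC. Myog fell (−1.25 ± 0.05, edgeR adjusted p = 3.08e-15), Myod1 rose (0.13 ± 0.04, edgeR adjusted p = 0.0168) and the other 3 expressed ones did not pass. The 7 cardiomyocyte markers summed to 146.1 to 167.4 CPM in vehicle and 139.4 to 146.9 CPM in OxPAPC. Among them the contractile genes Tnnt2 and Actc1 had 17280 and 4015 counts over all libraries, Myh6 and Myh7 had 3 and 6, and Tnnt2 fell (−0.18 ± 0.04, edgeR adjusted p = 0.00165). The markers with the highest counts were those of fibroblasts, led by Col1a1, but Pdgfra had only 68 counts over all libraries and was not tested. Of the fibroblast markers Thy1 fell (−0.08 ± 0.03, edgeR adjusted p = 0.0408) and 4 did not pass. The 6 endothelial markers summed to 0.510 to 1.69 CPM in vehicle and 0.466 to 1.77 CPM in OxPAPC, with 75 counts of Vwf and 66 of Tek over all libraries and none of Cdh5 or Kdr. The 6 leukocyte markers summed to 1.34 to 1.75 CPM in vehicle and 1.53 to 2.42 CPM in OxPAPC, with 122 counts of Cd68 and 105 of Csf1r over all libraries and none of Ptprc. The part of these marker changes in the results below was not tested.

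Per kb of gene length the members spanned a wide range of levels. In vehicle the order of mean deposited FPKM was S1pr3 (48.8 ± 0.954, SD, n = 4), Sgpl1 (41.1 ± 1.66), S1pr2 (16.1 ± 0.681), Sphk2 (12.2 ± 0.654), Sphk1 (9.74 ± 0.265), Lpar6 (6.30 ± 0.480), Ptafr (3.46 ± 0.240), S1pr1 (1.10 ± 0.118), Lpar1 (0.867 ± 0.0965) and Lpar4 (0.0386 ± 0.0178). S1pr1 and Lpar1 were the only neighbours in that order whose ranges over the 4 libraries overlapped. With OxPAPC, Sgpl1 (52.2 ± 1.01 FPKM, SD, n = 4) stood above S1pr3 (47.1 ± 1.01 FPKM), Sphk1 (14.9 ± 0.807 FPKM) stood above Sphk2 (12.8 ± 0.472 FPKM), and Lpar1 (1.70 ± 0.201 FPKM) stood above S1pr1 (0.914 ± 0.0865 FPKM). In that group only S1pr2 and Sphk1 overlapped as neighbours.

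**Figure D2:**
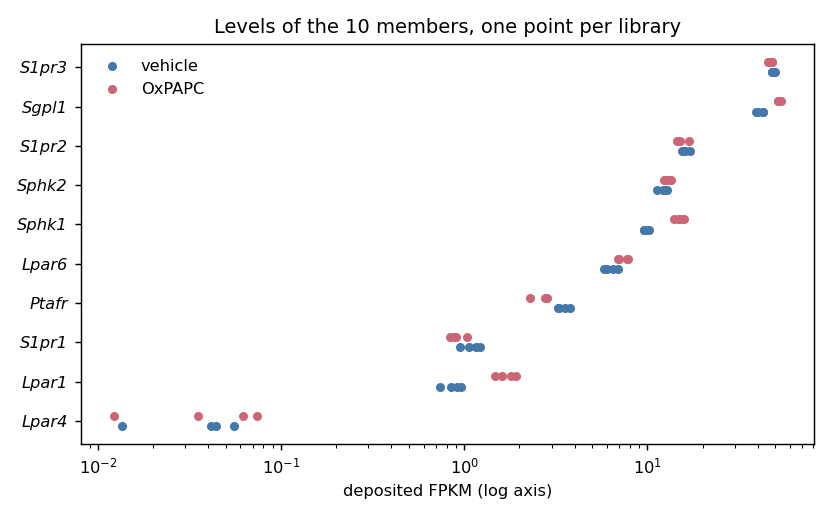
Deposited FPKM of each of the 10 genes on a log axis, with 1 point per library, vehicle in blue and OxPAPC in red, ordered by the vehicle mean. S1pr3 and Sgpl1 lie near the top of the range, Lpar4 lies below 0.1 FPKM in each library, and the groups are clearly apart for Sphk1, Sgpl1 and Lpar1.

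Sphingosine kinase 1 (Sphk1, gene 170897, chromosome 10, 101758567 to 101764240, plus strand), a cytosolic kinase that can be induced and moves to the plasma membrane on stimulation, rose with OxPAPC. Vehicle libraries 1, 8, 15 and 22 had 39.5, 39.6, 41.3 and 39.1 CPM, and OxPAPC libraries 2, 9, 16 and 23 had 61.5, 58.0, 63.2 and 65.6 CPM. Each OxPAPC library thus lay above each vehicle library, and the vehicle values were close together. The log2 fold change was 0.64 ± 0.05, or 1.56-fold (edgeR adjusted p = 7.05e-10). Its counts ran from 669 to 1312 per library. The 5′ end of Sphk1 shares 1189 bases of gene span with Khps1a, an antisense transcript on the minus strand; the human counterpart is known as a noncoding RNA that acts on the SPHK1 promoter. Khps1a had 130 counts over all libraries against 7266 for Sphk1 and averaged 0.730 CPM in vehicle and 1.06 CPM in OxPAPC (log2 fold change 0.55 ± 0.31, edgeR adjusted p = 0.186), and whether counting used strand is not known.

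Sphingosine kinase 2 (Sphk2, gene 308589, chromosome 1, 96180872 to 96188592, minus strand), the kinase found also in nuclei and mitochondria, had 48.4, 43.3, 48.4 and 45.9 CPM in vehicle and 52.3, 50.1, 47.8 and 48.3 CPM in OxPAPC. The groups overlapped, and the log2 fold change of 0.10 ± 0.05 did not pass (edgeR adjusted p = 0.166, 95% interval −0.01 to 0.20).

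The balance of the kinases shifted from Sphk2 towards Sphk1. In vehicle the log2 ratio of Sphk1 to Sphk2, from counts per kb, was −0.40, −0.23, −0.33 and −0.34, and in OxPAPC it was 0.13, 0.11, 0.30 and 0.34. The ratio was below 0 in each vehicle library and above 0 in each OxPAPC library. The means were −0.32 ± 0.07 and 0.22 ± 0.12 (SD, n = 4), with an exact two-sided permutation p of 0.0286, the smallest that 70 splits can give, and 0.0571 adjusted over a family of 6 shares and ratios, which does not pass 0.05.

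S1P lyase (Sgpl1, gene 286896, chromosome 20, 29047793 to 29094209, minus strand), which cleaves S1P into phosphoethanolamine and a fatty aldehyde and so ends the sphingolipid pathway, rose as well. Its vehicle values were 181.3, 171.6, 166.0 and 180.2 CPM, and its OxPAPC values were 226.5, 223.2, 231.9 and 222.1 CPM. The groups lay apart by more than the spread within either. Its log2 fold change was 0.37 ± 0.03, or 1.29-fold (edgeR adjusted p = 1.37e-08). The transcript that destroys S1P and the inducible transcript that makes it therefore both rose. Counts per kb of Sphk1 were 23.7 ± 1.56% of those of Sgpl1 in vehicle and 28.6 ± 1.54% in OxPAPC (SD, n = 4), a pair of values for which no test was run.

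Promoter windows of 250 bases before to 50 bases after a start site were available from RefSeq (build GRCr8) for 9 of the 10 genes, 11 windows in all. The table used holds no window of Lpar1. They were searched on both strands for TGACNNNGC, the antioxidant response element bound by NRF2, and for TGANTCA, the AP-1 site. TGACNNNGC occurred in 2 of the 9 genes, Sphk1 and Ptafr, and TGANTCA in 1, Sphk1. The windows with a match are shown, with that of Sgpl1, which holds none, beside them as another gene that rose, in lower case with matches in capitals. Lpar6, which also rose, had a window with neither motif.
Sphk1 (chr10:102258004-102258303, plus strand): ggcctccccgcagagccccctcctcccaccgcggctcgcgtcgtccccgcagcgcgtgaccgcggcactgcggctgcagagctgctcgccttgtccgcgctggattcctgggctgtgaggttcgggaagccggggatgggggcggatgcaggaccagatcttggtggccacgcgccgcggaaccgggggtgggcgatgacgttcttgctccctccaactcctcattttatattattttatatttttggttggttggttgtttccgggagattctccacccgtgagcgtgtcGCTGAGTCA
Sgpl1 (chr20:29636829-29637128, minus strand): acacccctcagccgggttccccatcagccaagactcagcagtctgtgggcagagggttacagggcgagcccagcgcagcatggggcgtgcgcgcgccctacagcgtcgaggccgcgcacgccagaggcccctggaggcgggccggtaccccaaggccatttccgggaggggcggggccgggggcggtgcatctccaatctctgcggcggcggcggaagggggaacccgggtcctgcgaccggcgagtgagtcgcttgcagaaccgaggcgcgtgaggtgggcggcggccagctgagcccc
Ptafr (chr5:150057154-150057453, plus strand): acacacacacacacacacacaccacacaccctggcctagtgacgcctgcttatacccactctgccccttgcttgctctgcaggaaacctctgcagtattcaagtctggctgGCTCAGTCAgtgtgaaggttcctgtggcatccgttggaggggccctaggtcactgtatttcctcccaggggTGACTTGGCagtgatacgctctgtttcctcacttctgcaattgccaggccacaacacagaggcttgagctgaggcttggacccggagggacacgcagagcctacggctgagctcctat

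The Sphk1 window above, which belongs to 1 of 3 annotated starts, ends in GCTGAGTCA, which is TGACNNNGC read on the other strand, 42 to 50 bases after the start, and the AP-1 match TGAGTCA lies wholly within it. The other windows of Sphk1 and the window of Sgpl1 held neither motif. Ptafr, which fell, held TGACNNNGC in both orientations, as GCTCAGTCA and TGACTTGGC. Of all 33469 RefSeq windows 12.1% held TGACNNNGC and 7.33% held TGANTCA, and of the 12080 windows of tested genes 13.9% and 5.17% did. These percentages are per window, whereas the members were counted per gene, and Sphk1 had 3 windows. A match describes the letters and is not a binding site.

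S1P receptor 3 (S1pr3, gene 306792, chromosome 17, 13781050 to 13794408, minus strand), which couples to Gi, Gq and G12/13 proteins, was the most abundant receptor of the list. It had 185.2, 189.9, 184.6 and 192.1 CPM in vehicle and 187.9, 179.4, 188.0 and 184.0 CPM in OxPAPC. The groups overlapped and the values within each lay within a narrow band. On the log2 scale the change was −0.02 ± 0.03 (adjusted p = 0.601 by edgeR), and its 95% interval of −0.09 to 0.04 leaves little room for a larger change in either direction.

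S1P receptor 2 (S1pr2, gene 29415, chromosome 8, 19503276 to 19514169, minus strand), which acts largely through G12/13 and restrains migration in many cells, had 43.4, 42.8, 41.7 and 46.0 CPM in vehicle and 47.0, 40.3, 40.1 and 41.4 CPM in OxPAPC. OxPAPC library 2 was the highest of the 8, and the other OxPAPC libraries were the lowest. A log2 fold change of −0.05 ± 0.06 did not pass (edgeR adjusted p = 0.586, 95% interval −0.16 to 0.07). Without OxPAPC library 2 it was −0.10 and still did not pass (edgeR adjusted p = 0.186, range over the alternatives 0.186 to 0.869).

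S1P receptor 1 (S1pr1, gene 29733, chromosome 2, 203624752 to 203629110, minus strand), a Gi-coupled receptor best known from endothelium and lymphocytes, was scarce, with 51 to 88 counts per library. Vehicle libraries had 3.61, 4.08, 4.42 and 4.61 CPM, and OxPAPC libraries had 3.53, 3.42, 3.23 and 4.00 CPM. The groups overlapped, with the OxPAPC values mostly the lower ones. The log2 fold change of −0.23 ± 0.15 did not pass (edgeR adjusted p = 0.262), and its 95% interval of −0.55 to 0.08 is wide enough that a moderate fall was not detectable at this depth. Over all libraries the endothelial markers Vwf and Tek had 75 and 66 counts, Tie1 14, Pecam1 5, and Cdh5 and Kdr none, and their part in the level of S1pr1 was not tested.

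The proportions of the S1P receptors were close in the 2 groups. Per kb, S1pr3 made up 74.0 ± 0.555% of the summed S1P receptor counts in vehicle and 74.4 ± 1.22% in OxPAPC, as mean ± SD of 4 libraries (two-sided exact permutation p = 0.514, adjusted p = 0.617). S1pr2 made up 24.3 ± 0.548% and 24.1 ± 1.22% (exact permutation p = 0.771, adjusted p = 0.771), and S1pr1 made up 1.66 ± 0.159% and 1.44 ± 0.140% (exact permutation p = 0.114, adjusted p = 0.171). The FPKM of the S1P receptors summed to 65.9 ± 1.61 in vehicle and 63.3 ± 1.73 in OxPAPC (SD, n = 4).

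LPA receptor 1 (Lpar1, gene 116744, chromosome 5, 73229047 to 73347874, minus strand), a broadly expressed receptor coupled to Gi, Gq and G12/13 and known from fibroblast migration and fibrosis, showed the largest rise of the 9 tested members in the edgeR fit. The vehicle libraries had 6.94, 7.87, 6.01 and 7.42 CPM, and the OxPAPC libraries had 16.1, 13.4, 14.8 and 12.1 CPM. The lowest OxPAPC library lay well above the highest vehicle library. Counts ran from 106 to 254 per library. The rise was 1.98-fold, or 0.98 ± 0.11 in log2 (edgeR adjusted p = 2.54e-07). On the log2(FPKM + 1) scale, where a pseudocount of 1 is about as large as the level of this gene, it was 0.53 (limma adjusted p = 0.000231) and lay below the 0.56 of Sphk1.

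LPA receptor 6 (Lpar6, gene 691774, chromosome 15, 48416548 to 48418357, plus strand), a receptor of the P2Y-like branch known in humans for its role in hair growth, rose slightly and near the threshold. It had 11.7, 10.8, 10.3 and 12.3 CPM in vehicle and 12.8, 14.1, 14.3 and 12.5 CPM in OxPAPC. The groups did not overlap, but vehicle 22 and OxPAPC 23 nearly met. The log2 fold change was 0.25 ± 0.09 (edgeR adjusted p = 0.0327). The call was lost without vehicle 8 (edgeR adjusted p = 0.0808), vehicle 15 (0.0976), OxPAPC 9 (0.101) or OxPAPC 16 (0.0995) when any 1 of them was left out. It was also lost with upper-quartile factors (0.0676), without a filter (0.0673), with DESeq2 (adjusted p = 0.0599) and with limma on log2(FPKM + 1) without a filter (0.0739), over a range of 0.0249 to 0.101 in 19 alternatives. The whole gene lies within the span of Rb1 on the opposite strand, which had 3343 counts over all libraries and did not pass (−0.04 ± 0.10, edgeR adjusted p = 0.798).

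LPA receptor 4 (Lpar4, gene 302378, chromosome X, 72033486 to 72046978, plus strand), also of the P2Y-like branch, was barely detected and could not be tested. Vehicle libraries held 3, 4, 1 and 4 counts and OxPAPC libraries 4, 1, 5 and 3 counts. The sums of 12 counts (exact Poisson 95% interval 6.20 to 21.0) and 13 counts (6.92 to 22.2) show no difference that could be resolved at this depth.

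The Lpar1 part of the LPA receptor transcripts was larger in each OxPAPC library than in each vehicle library. Per kb, Lpar1 was 11.5, 13.7, 11.3 and 11.6% of the sum of Lpar1, Lpar4 and Lpar6 in vehicle and 21.5, 17.2, 18.5 and 17.5% in OxPAPC. Lpar3 and Lpar2, with 62 and 23 counts over all libraries, are not part of that sum. Per kb, Lpar6 was the larger part in each library, with 87.4 ± 1.21% in vehicle and 80.9 ± 2.17% in OxPAPC (SD, n = 4). That order depends on the division by length: in CPM Lpar1 exceeded Lpar6 in OxPAPC 2 (16.1 against 12.8) and OxPAPC 16 (14.8 against 14.3), and without it the Lpar1 share differed by 12.6 percentage points between the groups. The share of Lpar1 averaged 12.0 ± 1.10% in vehicle and 18.6 ± 1.97% in OxPAPC (SD, n = 4), with groups that did not overlap and an exact two-sided permutation p of 0.0286, again the smallest possible, and 0.0571 adjusted over the 6 shares and ratios. In FPKM the 3 LPA receptors summed to 7.21 ± 0.547 in vehicle and 9.11 ± 0.566 in OxPAPC (SD, n = 4).

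**Figure D3:**
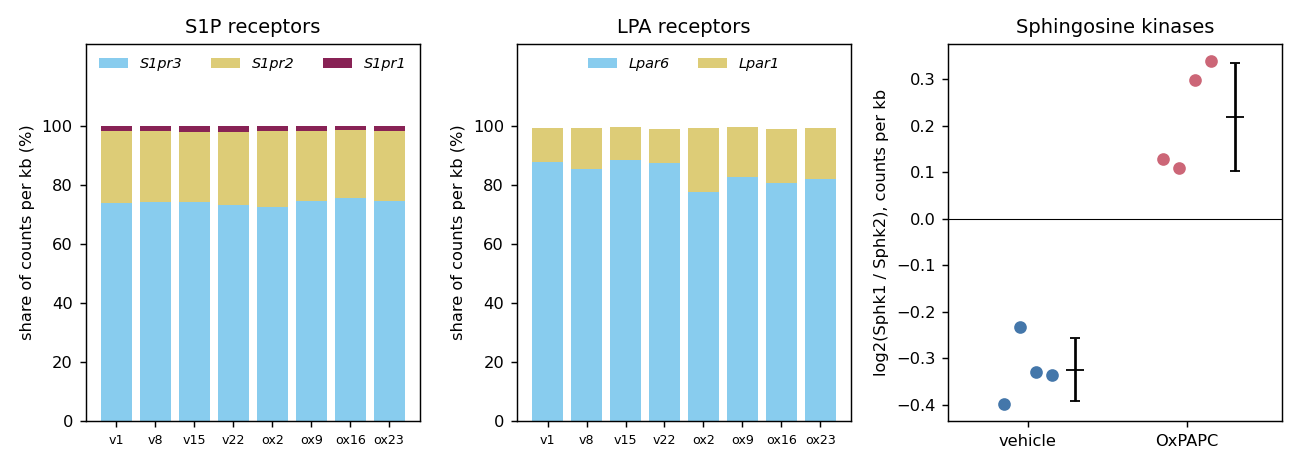
Shares of counts per kb in each library among S1pr1, S1pr2 and S1pr3 (left) and among Lpar1, Lpar4 and Lpar6 (middle). The small remainder to 100% in the middle panel is Lpar4. The right panel shows the log2 ratio of Sphk1 to Sphk2 by group with mean ± SD of 4 libraries. The S1P receptor bars look alike in all 8 libraries, the Lpar1 part is larger in the OxPAPC libraries (17.2 to 21.5%) than in vehicle (11.3 to 13.7%), and the kinase ratio changes sign.

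The PAF receptor (Ptafr, gene 58949, chromosome 5, 144765770 to 144795057, plus strand), a Gq- and Gi-coupled receptor best known from leukocytes and platelets, was the member that fell. Vehicle libraries had 12.7, 12.5, 14.4 and 13.6 CPM, and OxPAPC libraries had 11.1, 8.89, 10.8 and 10.95 CPM. The groups did not overlap, and OxPAPC 9 was the lowest of all. Its log2 fold change was −0.35 ± 0.09, or 0.784-fold (edgeR adjusted p = 0.00584). Without OxPAPC 9 it was −0.28 and passed (edgeR adjusted p = 0.0316, range over the alternatives 0.00188 to 0.0316). In bulk RNA, fewer cells that express a gene and less RNA per cell cannot be told apart. Ptafr had 166 to 270 counts in each library. Over all libraries the leukocyte markers Cd68 and Csf1r had 122 and 105 counts, Cd3e 11, Itgam 9, Aif1 2 and Ptprc none, and their part in the level of Ptafr was not tested.

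**Figure D4:**
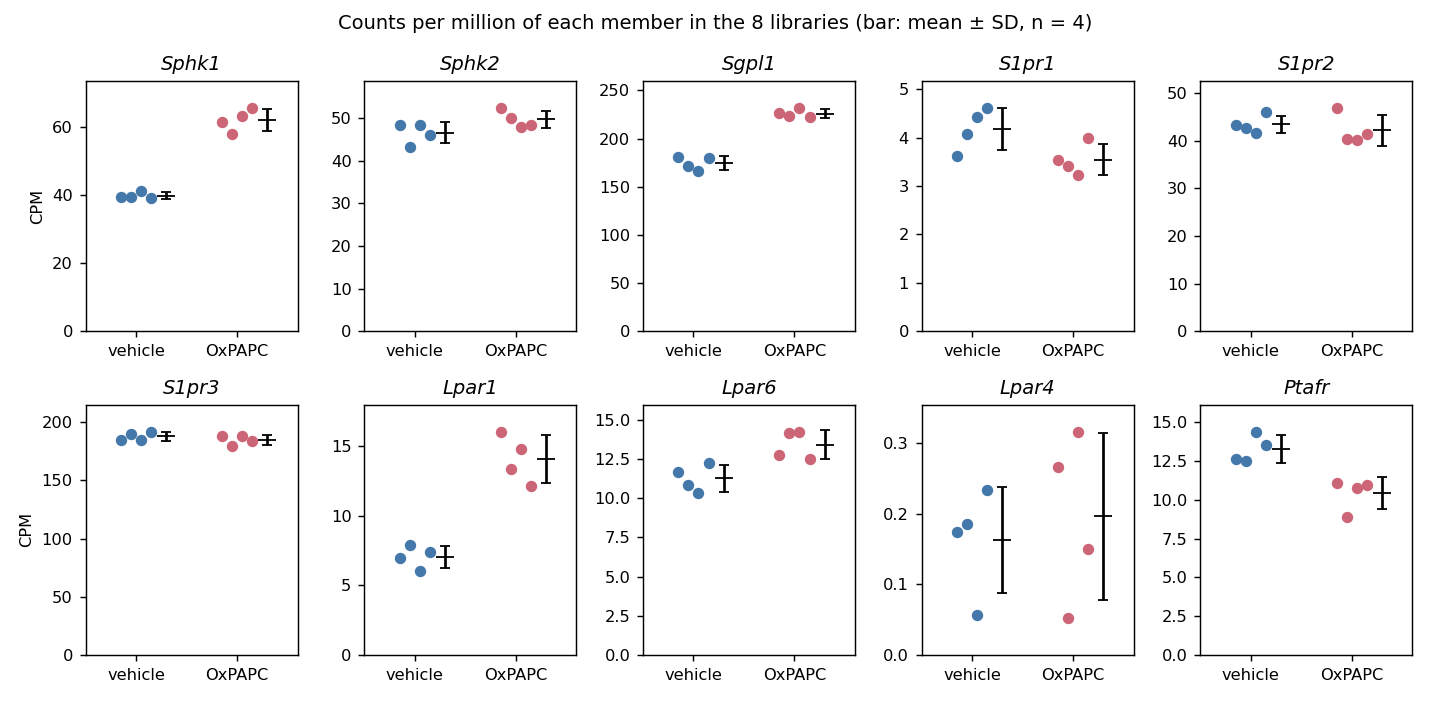
CPM of each of the 10 genes in the 8 libraries, vehicle in blue and OxPAPC in red, with black bars for mean ± SD of 4 libraries. OxPAPC libraries lie above vehicle libraries without overlap for Sphk1, Sgpl1, Lpar1 and Lpar6 and below them for Ptafr, and the groups overlap for Sphk2, S1pr1, S1pr2, S1pr3 and Lpar4.

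The other receptors for lysophospholipids and lipid mediators that were listed here were nearly absent. Scavenger, Toll-like and prostaglandin receptors were not among those listed. None of the 5 remaining S1P and LPA receptors had enough counts for a test. Lpar3 had 27 counts in vehicle and 35 in OxPAPC, summed over each group, Lpar2 had 6 and 17, S1pr4 and S1pr5 had 2 each in all, and Lpar5 had none. Among 22 further receptors for lipid mediators, which included those for leukotrienes, cannabinoids, free fatty acids and lysophosphatidylserine, none could be tested and 14 had no count in any library. The receptor with most counts among them was Gpr132, with 27 counts in vehicle and 26 in OxPAPC. For a gene without counts the upper limit, taken as 3 counts over a group, was 0.0409 CPM for vehicle and 0.0428 CPM for OxPAPC, and it covers counting error only.

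Of 40 sphingolipid genes listed 39 were found and 30 tested, of which 6 rose, 6 fell and 18 did not pass, with a median log2 fold change of −0.04. Over all tested genes 34.3% passed and the median was 0.0022, and the counts of this list and of the next 3 are to be read against that background. Levels in the next paragraphs are mean CPM ± SD of 4 libraries, followed by the log2 fold change ± SE. Ceramide synthases, which set the acyl chain of ceramide, were split. Cers6, which prefers palmitoyl chains, rose from 105.1 ± 6.94 CPM to 157.1 ± 4.37 CPM, by 0.58 ± 0.04 (edgeR adjusted p = 2.96e-10). Cers5 fell from 110.3 ± 3.38 CPM to 98.5 ± 2.32 CPM, a change of −0.16 ± 0.04 (edgeR adjusted p = 0.00147). Cers4, which prefers longer chains, fell from 39.2 ± 1.09 CPM to 24.8 ± 1.28 CPM, a change of −0.67 ± 0.06 (edgeR adjusted p = 3.81e-09), and Cers2, the synthase of very long chains, rose by 0.16 ± 0.05 (edgeR adjusted p = 0.00961) but not without OxPAPC 9 (0.13, edgeR adjusted p = 0.0515) nor in the limma fits to FPKM (adjusted p = 0.0562 to 0.121).

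The subunits of serine palmitoyltransferase, the entry step of sphingolipid synthesis, also moved apart. Sptlc1 fell (−0.38 ± 0.05, edgeR adjusted p = 3.11e-06) while Sptlc2 rose (0.26 ± 0.04, edgeR adjusted p = 6.03e-06). Glucosylceramide synthase (Ugcg), which draws ceramide into glycosphingolipids, fell from 48.2 ± 2.88 CPM to 34.0 ± 1.71 CPM, a change of −0.50 ± 0.06 (edgeR adjusted p = 2.54e-07). The S1P phosphatase Sgpp1, which returns S1P to sphingosine, stood at 56.2 ± 2.87 CPM in vehicle and 52.9 ± 1.23 CPM in OxPAPC (−0.09 ± 0.05, edgeR adjusted p = 0.177). The S1P exporter Spns2 was scarce, at 1.45 ± 0.432 CPM in vehicle and 1.05 ± 0.211 CPM in OxPAPC (−0.45 ± 0.29, edgeR adjusted p = 0.254), and neither gene passed.

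For LPA, 7 of 11 genes of its metabolism were tested, 2 rose, none fell and 5 did not pass (34.3% passed over all tested genes), with a median of 0.03. Both risers are lipid phosphate phosphatases, which dephosphorylate LPA and S1P outside cells. Plpp3 rose from 4.39 ± 0.559 CPM to 5.89 ± 0.154 CPM, by 0.42 ± 0.13 (edgeR adjusted p = 0.0164) and by 0.25 on the log2(FPKM + 1) scale, and the more abundant Plpp1 rose by only 0.11 ± 0.03 (edgeR adjusted p = 0.0137), which did not pass with upper-quartile factors (0.08, edgeR adjusted p = 0.0914) or without a filter (0.0672). Autotaxin (Enpp2), the enzyme that makes LPA outside cells, had 1 count in all of vehicle and 3 in all of OxPAPC.

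Among 10 tested genes of PAF and ether lipid metabolism 3 fell, none rose and 7 did not pass (34.3% passed over all tested genes), with a median of −0.04. Lpcat1, a lysophosphatidylcholine acyltransferase that can also make PAF, fell from 41.7 ± 2.55 CPM to 23.6 ± 0.824 CPM, a change of −0.82 ± 0.06 (edgeR adjusted p = 2.07e-10). Far1 (−0.43 ± 0.04, edgeR adjusted p = 1.13e-08) and Gnpat (−0.29 ± 0.06, edgeR adjusted p = 0.000901), which act early in the synthesis of ether lipids in peroxisomes, fell too. The other PAF-forming acyltransferase, Lpcat2, and the PAF hydrolase of plasma, Pla2g7, had 1 count each over all libraries. Genes of other PAF hydrolases were expressed. Pafah1b1 stood at 204.0 ± 8.42 CPM in vehicle and 217.2 ± 7.44 CPM in OxPAPC, and Pafah1b2 at 88.5 ± 3.90 CPM and 86.6 ± 3.97 CPM. Pafah1b3 and Pafah2 were less abundant, and none of these genes passed (edgeR adjusted p = 0.0547 to 0.893).

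Of 7 tested regulators of receptor signalling 2 rose, 1 fell and 4 did not pass (34.3% passed over all tested genes), with a median of 0.03. Rgs3, which speeds the shut-off of G proteins, rose by 0.23 ± 0.04 (edgeR adjusted p = 0.000154). The receptor kinases Grk6 (0.14 ± 0.05, edgeR adjusted p = 0.0165) and Grk5 (−0.16 ± 0.06, edgeR adjusted p = 0.0411) were close to the threshold. Grk6 did not pass without OxPAPC 2 (adjusted p = 0.0534), vehicle 8 (0.0625) or vehicle 22 (0.0543). Grk5 did not pass without 6 of the 8 libraries, vehicle 1, 8 and 22 and OxPAPC 9, 16 and 23 (edgeR adjusted p = 0.0609 to 0.152). Limma on FPKM called neither gene, and upper-quartile factors ended the call of Grk6 (0.0763) and DESeq2 that of Grk5 (0.0720).

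**Figure D5:**
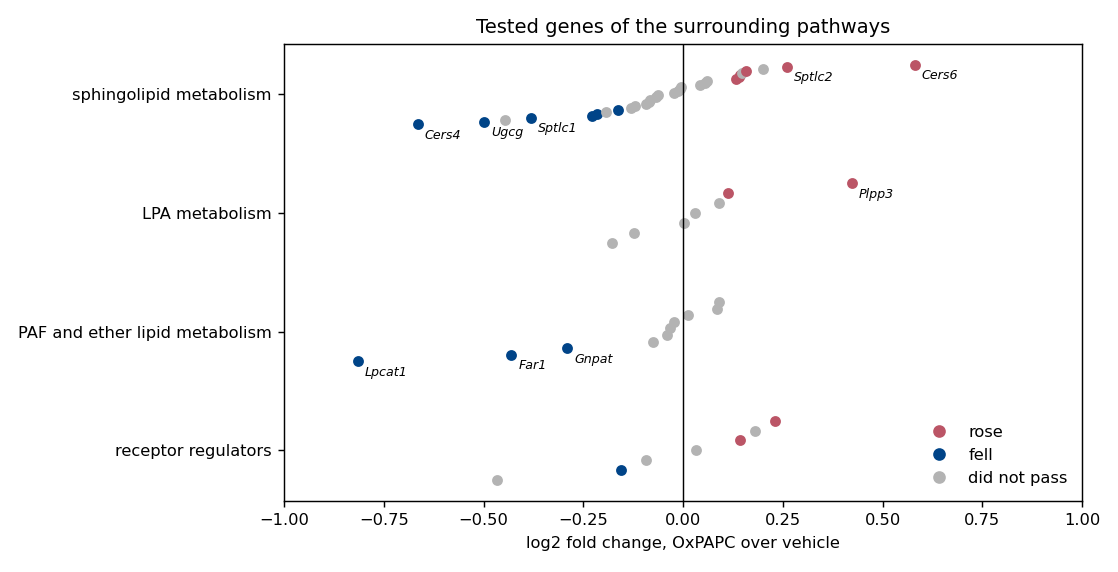
Log2 fold change of each tested gene of the 4 surrounding gene lists, 1 point per gene, coloured by whether it rose, fell or did not pass. Cers6 (0.58) and Plpp3 (0.42) lie farthest to the right and Lpcat1 (−0.82) and Cers4 (−0.67) farthest to the left.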

How the data were processed

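Messenger RNA of 8 H9c2 samples, 4 with OxPAPC and 4 with vehicle, was sequenced. The authors deposited raw read counts per gene and, from the same libraries, FPKM values. The tools named, without role or order, in the submitters' processing notes are featureCounts 1.5.0-p3, StringTie 1.3.3b and HISAT2 2.0.5. Directional and non-directional libraries are both mentioned in the labels' protocols, so strand use in counting is not known. No build of the genome is given in the sources used here. Gene coordinates are those of the deposited table, and chromosome numbers and promoter windows come from RefSeq tables of GRCr8, matched by gene identifier (91.9% of 40994). Each file had 1 line blanked before use. The deposited FPKM equal count per kb over the library total times 1 factor per library (0.987 to 1.02).

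Counts were analysed with edgeR 4.0.16 in R 4.3.3: filterByExpr (at least 10 counts in 4 libraries, scaled to the median library, and 15 in total), TMM factors (0.976 to 1.03) and the robust quasi-likelihood F test, with Benjamini-Hochberg adjustment over 13206 genes. The SE of a log2 fold change is its size divided by the square root of F. Shares and ratios used exact permutation over 70 splits, adjusted over 6. The Poisson intervals of Lpar4 and the floors cover counting error only, while the edgeR intervals also include the spread between libraries. Alternatives were RLE and upper-quartile factors, library totals, other filters, DESeq2 1.42.0, limma 3.58.1 (voom, and log2 of FPKM plus 1 or 0.1) leaving out each library and, chosen after seeing the data, neighbouring title numbers as a block. Chi-square per degree of freedom between libraries was 2.23 to 9.50 within groups and 23.1 to 35.0 across, above counting error alone. Each library was counted as 1 replicate. These values cannot tell separate cultures from separate preparations of 1 culture.

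The members and lists were chosen with earlier results of these data known. All 10 members are named, and of each surrounding list the 3 risers and 3 fallers with the smallest p among those past the test. Receptors, Sgpp1, Spns2, Enpp2, Lpcat2, Pla2g7 and the Pafah genes are given for their role, and Cers5 beside the other synthases, after their values were seen. 1 further list is not reported here.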

Additional observations from a re-analysis of the deposited data

Results flagged for a closer look

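In 60 groups of 4 libraries examined, over the members, the shares and ratio and the named genes of the lists, 3 had 1 library far from the other 3 (a gap to the nearest library beyond Dixon's 95% critical value for the group's range). Chance gives such a gap in about 1 of 20 groups. Ptafr in OxPAPC 9 stood at 8.89 CPM, against 10.8 to 11.1 CPM in the other OxPAPC libraries. The share of Lpar1 among LPA receptor transcripts in vehicle 8 was 13.7%, against 11.3 to 11.6% in the other vehicle libraries. Cers6 in OxPAPC 23 stood at 150.6 CPM, against 158.8 to 160.1 CPM in the other OxPAPC libraries. Each of these libraries lay on its own group's side of the other group.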

How the results depend on the processing

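Over 19 alternatives, Lpar1, Sphk1, Sgpl1 and Ptafr passed in all 19 and Lpar6 in 11, and the 4 tested members that did not pass failed in all 19; none of the 9 changed direction. The number of members that rose was 3 or 4 and that fell was 1, both with each library left out in turn and otherwise. Over all genes, 2369 rose and 2164 fell (52.3% rises), against 1829 and 2723 (40.2%) with upper-quartile factors, where the median over all genes was −0.04, and 1488 rose with log2(FPKM + 1) and no filter; the cause was not tested. With deposited FPKM the 6 shares and ratios are the same by construction, since FPKM differ from counts per kb by 1 factor per library. With counts not divided by length they stayed above an adjusted p of 0.05 by exact permutation. In both settings the smallest possible permutation p, 0.0286, became 0.0571 after adjustment over the 6, so a failure to pass says little. Without division by length the Lpar1 share differed by 12.6 percentage points between the groups. The difference of the kinase ratio cannot change with that setting and was 0.543 in log2. The differences of S1pr2 and S1pr3 shares, which did not pass, changed sign without OxPAPC 16 (0.183 and −0.00564 percentage points), and that of S1pr2 without vehicle 22 (0.00562). For the 14 genes of the lists named by smallest p, 24 of 266 values lost the call and none changed direction. The groups share no replicate number, and the labels do not say whether neighbouring title numbers (1 and 2, 8 and 9, 15 and 16, 22 and 23) belong together. With these couples as a replicate block, chosen after seeing the data, 2439 genes rose and 2225 fell. No call of a member or of the 14 genes named by smallest p changed there (Lpar6 adjusted p = 0.0450 by edgeR). Deviations from the group means correlated at 0.211, −0.00108, 0.0303 and 0.0141 across genes in the 4 couples and at −0.239 to 0.189 in the other 12 pairs of a vehicle with an OxPAPC library. Depth limits S1pr1 and Lpar4, with at most 88 and 5 counts per library.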
